A study of Homo sapiens with 48 samples.

Results

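The comparison described here sets the pancreatic ductal adenocarcinoma (PDAC) line Panc3.27 against the PDAC line ASPC1 in RNA-seq. Both are established human cancer cell lines. The members are 6 of the 48 samples of the study, 3 libraries of Panc3.27 carrying an empty vector and 3 libraries of ASPC1 kept in the solvent DMSO, chosen by their labels. DMSO is the solvent control of a drug treatment. The other samples are 24 further RNA-seq libraries and 18 chromatin profiles of ASPC1 made by CUT&RUN. The ASPC1 cells of those profiles carried a control hairpin or a hairpin against ZNF274 and were given doxycycline. The further libraries include Panc3.27 overexpressing ZNF274 (OE), ASPC1 transfected with a control siRNA (siCTRL) or an siRNA against ZNF274 (siZNF274), ASPC1 in azacitidine (AZA, a drug that blocks DNA methylation) at 5 µM and the line CFPAC1. Genes were restricted to the 35521 autosomal genes among the 36843 of the count table. In RNA-seq none of the ASPC1 groups carried a vector and no Panc3.27 group was kept in DMSO, so line and handling cannot be told apart in any value below, and only differences of at least 4-fold are called. The labels name neither the vector's promoter nor whether the libraries came from separate cultures, although the design text calls them biological triplicates, so p-values measure the spread between these libraries.

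PDAC cells are commonly placed along an axis between a classical state and a basal-like or squamous state. Classical cells keep gastrointestinal epithelial genes that are driven by factors such as GATA6 and HNF4A, and they make mucins, trefoil factors and brush-border proteins. Basal-like or squamous cells express TP63, the master regulator of stratified epithelium, with its keratins, desmosomal cadherins and laminins. A further axis, epithelial-mesenchymal transition, runs between junction proteins held up by GRHL2 and the splicing regulators ESRP1 and ESRP2, and the intermediate filament vimentin under repressors such as ZEB1.

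The 6 libraries held 35579652 to 41129428 counts each. Between 23586 and 23988 genes had a count in the Panc3.27 libraries, against 20940 to 21162 in the ASPC1 libraries. Mitochondrial genes took 1.87% to 3.28% of the counts in Panc3.27 and 2.35% to 3.15% in ASPC1. Levels are given in CPM, each count divided by its library's total after scaling with edgeR's TMM factors, per library or as mean ± SD (n = 3 libraries). They are not divided by transcript length, so they compare the lines for a gene and not one gene with another. The label of an epithelial cancer line was checked with 7 epithelial markers, all of which had reads in all libraries. EPCAM, the epithelial cell adhesion molecule, had 406, 404 and 421 CPM in the 3 Panc3.27 libraries, against 865, 875 and 895 CPM in the 3 ASPC1 libraries. KRT19, a ductal keratin, had 632 ± 19.8 CPM in Panc3.27 and 2157 ± 121 CPM in ASPC1. KRT18, a keratin of simple epithelium, had 1147 ± 78.1 CPM in Panc3.27 and 4086 ± 346 CPM in ASPC1. These 3 genes stayed under the 4-fold rule, whereas KRT7, KRT8 and CDH1 of the same list were called and are described with their families. Of the markers of other cell types, the islet hormone genes INS, GCG and SST had no read in any of the 6 libraries. The 6 acinar markers summed to at most 0.795 CPM in a Panc3.27 library and 0.0847 CPM in an ASPC1 library, with CPB1 and PNLIP at 0 in both lines. The 7 leukocyte markers summed to 4.34 to 4.86 CPM in Panc3.27, with MS4A1 at 0, and to 0.837 to 1.46 CPM in ASPC1, with MS4A1, CD3D and CD163 at 0. The 4 endothelial markers summed to 28.6 to 29.5 CPM in Panc3.27, nearly all of it VWF, and to 0.423 to 0.597 CPM in ASPC1, with KDR and CDH5 at 0. In the longer lists of such markers, 5 of 20 acinar genes passed the filter, 3 called higher and 1 lower. Of the leukocyte list, 7 of 17 genes passed the filter, 4 called higher and 1 lower. Of the endothelial list, 3 of 11 genes passed the filter, 2 called higher and 0 lower. Of the islet list, 7 of 17 genes passed the filter, 5 called higher and 2 lower. Their part in the differences was not tested.

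Panc3.27 and ASPC1 differed by a large fold in many of their genes, with more on the higher side. Of 17173 autosomal genes that passed edgeR's filter on low counts, 3084 (18.0%) were higher in Panc3.27 and 1732 (10.1%) were lower by at least 4-fold with an adjusted p under 0.05 (edgeR's quasi-likelihood test, Benjamini-Hochberg adjustment over all genes tested). The largest adjusted p among them was 0.0042 for the genes called higher and 0.00461 for those called lower, and for every called gene the 3 libraries of Panc3.27 did not overlap the 3 of ASPC1. Without the fold rule, 44.5% were higher and 38.3% lower. Counts of calls below use the fold rule, so a share of a list near 18.0% or 10.1% is no result about that list. The genes called higher comprised 2410 protein-coding and 674 long non-coding genes, and those called lower 1227 and 505. The median size of the log2 fold change was 5.63 among the genes called higher and 3.65 among those called lower, while the median over all tested genes was 0.09. With the other groups of each line added, 2978 (96.6%) of the genes called higher and 1634 (94.3%) of those called lower had all 6 Panc3.27 libraries, vector and OE, above or below all 12 ASPC1 libraries. Over all tested genes that held for 34.6% upwards and 27.5% downwards. A gene that passed the filter only through the line in which it is high had to differ, so counts over the members of a list that passed are a description.

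The genes with the largest folds among protein-coding genes at 20 CPM or more were close to on in one line and off in the other. COL4A1 (ENSG00000187498.16, chromosome 13, 110148963 to 110307157, build hg38), a chain of the basement-membrane collagen IV, had 591, 581 and 639 CPM in the 3 Panc3.27 libraries, against no read in any of the 3 ASPC1 libraries. Measured against a floor of 3 counts per library, it was at least 7098-fold higher. EFEMP1, the extracellular matrix protein fibulin-3, had 436, 389.6 and 400.0 CPM in the 3 Panc3.27 libraries, against no read in any of the 3 ASPC1 libraries. In both genes the ASPC1 libraries hold nothing to overlap with. MAL2, a membrane protein of polarised epithelial transport, had 371, 345 and 350.3 CPM in the 3 Panc3.27 libraries, against no read in any of the 3 ASPC1 libraries. UCHL1 (chromosome 4, 41256413 to 41268455), a ubiquitin hydrolase abundant in neurons, had 299, 269.9 and 267 CPM in the 3 Panc3.27 libraries, against no read in any of the 3 ASPC1 libraries. Neither had a read in ASPC1. TENM3, a teneurin adhesion protein, had 240.1 ± 24.1 CPM in Panc3.27 and no read in any of the 3 ASPC1 libraries. TDRD1, a Tudor protein of the germ-line piRNA pathway, had 201 ± 7.67 CPM in Panc3.27 and no read in any of the 3 ASPC1 libraries. PTGS2, the inducible cyclooxygenase, had 193 ± 9.62 CPM in Panc3.27 and no read in any of the 3 ASPC1 libraries. These genes of unlike function thus shared the same pattern. INA, a neuronal intermediate filament, had 174 ± 13.7 CPM in Panc3.27 and no read in any of the 3 ASPC1 libraries. KRT6A, a keratin of stratified and wounded epithelium, had 566, 536 and 555 CPM in the 3 Panc3.27 libraries, against 1 count in all over the 3 ASPC1 libraries. Its single ASPC1 read made the ratio 58696-fold higher, with a 95% counting interval from 10535 to 2318370.0. MAP2K4, a kinase upstream of JNK and p38, had 120.3, 107 and 109 CPM in the 3 Panc3.27 libraries, against no read in any of the 3 ASPC1 libraries. RNF217, a ubiquitin ligase, had 110.4 ± 5.39 CPM in Panc3.27 and no read in any of the 3 ASPC1 libraries.

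In the other direction the leading genes included several of glandular and intestinal epithelium. B3GALT5 (chromosome 21, 39556442 to 39673137), a galactosyltransferase that builds type 1 glycan chains, had no read in any of the 3 Panc3.27 libraries, against 359, 348 and 354 CPM in the 3 ASPC1 libraries. It was at least 4928-fold lower. LYZ (chromosome 12, 69348381 to 69354234), lysozyme, had no read in any of the 3 Panc3.27 libraries, against 280.5, 288 and 298 CPM in the 3 ASPC1 libraries. TM4SF4 (chromosome 3, 149474697 to 149503394), a membrane protein of liver and intestine, had no read in any of the 3 Panc3.27 libraries, against 167, 176 and 166 CPM in the 3 ASPC1 libraries. These 3 genes had no read at all in Panc3.27. PTGIS, prostacyclin synthase, had 1 count in all over the 3 Panc3.27 libraries, against 486, 526 and 514 CPM in the 3 ASPC1 libraries. EPS8L3 (chromosome 1, 109750080 to 109764027), a relative of the actin regulator EPS8, had no read in any of the 3 Panc3.27 libraries, against 143, 152 and 136 CPM in the 3 ASPC1 libraries. MGAM2, a relative of the intestinal maltase, had 1 count in all over the 3 Panc3.27 libraries and 480.0 ± 53.8 CPM in ASPC1. Of these only PTGIS and MGAM2 showed single reads in Panc3.27. A1CF, the cofactor of apolipoprotein B mRNA editing, had no read in any of the 3 Panc3.27 libraries and 138 ± 12 CPM in ASPC1. CDKN2A (chromosome 9, 21967752 to 21995301), which encodes the cell-cycle inhibitors INK4A and ARF, had no read in any of the 3 Panc3.27 libraries, against 109, 118 and 106 CPM in the 3 ASPC1 libraries. It was at least 1548-fold lower, and the libraries of the lines do not come near each other. THBD, thrombomodulin, had no read in any of the 3 Panc3.27 libraries and 94.9 ± 3.34 CPM in ASPC1. TMEM176A had no read in any of the 3 Panc3.27 libraries and 67.5 ± 1.24 CPM in ASPC1. KCNQ3, a potassium channel gene, had 1 count in all over the 3 Panc3.27 libraries and 214 ± 13.1 CPM in ASPC1. The remaining gene of the 12, VIM (chromosome 10, 17228241 to 17237593), encodes vimentin. It had 0.227, 0.0467 and 0.0232 CPM in the 3 Panc3.27 libraries, against 2497, 2474 and 2323 CPM in the 3 ASPC1 libraries. Unlike the others it kept reads in every Panc3.27 library, so its fold could be fitted, at 24585-fold lower (95% interval 18812 to 32129.7).

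Of the genes well expressed in one line, more lacked reads in ASPC1 than in Panc3.27. Of 9462 autosomal genes at 10 CPM or more in Panc3.27, 129 had no read in any ASPC1 library, and 122 of these were protein-coding. Of 9090 genes at that level in ASPC1, 24 had no read in any Panc3.27 library, 21 of them protein-coding. An absence of reads allows up to 3 counts per library, a bound that covers counting error only. The 3 counts are 0.0718 CPM in Panc3.27 and 0.085 CPM in ASPC1, whose libraries were smaller after scaling. The part of library size in the 129 and 24 genes was not tested.

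Promoters of 4 leading genes that were on in one line and off in the other are shown as examples. Their CpG content was high, middling or low. Each is the 250 bases before the RefSeq start (GRCh38.p14), read on the gene's strand, in lower case with each CG dinucleotide, the site of DNA methylation, in capitals. The RefSeq start need not be the outer end of the gene as counted. The UCHL1 window lies inside the counted gene, and so does part of the EPS8L3 window.
COL4A1, chr13:110307158-110307407, minus strand: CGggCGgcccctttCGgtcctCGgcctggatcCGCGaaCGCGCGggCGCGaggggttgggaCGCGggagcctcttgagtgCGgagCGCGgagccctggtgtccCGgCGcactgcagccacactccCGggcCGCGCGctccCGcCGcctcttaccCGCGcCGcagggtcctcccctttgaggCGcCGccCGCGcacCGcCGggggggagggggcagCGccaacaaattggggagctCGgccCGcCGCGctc
UCHL1, chr4:41256678-41256927, plus strand: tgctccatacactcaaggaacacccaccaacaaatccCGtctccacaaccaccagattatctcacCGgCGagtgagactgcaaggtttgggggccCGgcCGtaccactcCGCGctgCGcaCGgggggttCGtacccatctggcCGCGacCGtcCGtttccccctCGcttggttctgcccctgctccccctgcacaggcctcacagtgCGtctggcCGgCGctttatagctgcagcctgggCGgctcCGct
TM4SF4, chr3:149474447-149474696, plus strand: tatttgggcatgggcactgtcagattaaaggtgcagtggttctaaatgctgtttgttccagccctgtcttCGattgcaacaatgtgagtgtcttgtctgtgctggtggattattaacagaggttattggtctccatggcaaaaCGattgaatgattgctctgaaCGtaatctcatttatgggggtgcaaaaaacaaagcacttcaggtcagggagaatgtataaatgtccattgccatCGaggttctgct
EPS8L3, chr1:109763924-109764173, minus strand: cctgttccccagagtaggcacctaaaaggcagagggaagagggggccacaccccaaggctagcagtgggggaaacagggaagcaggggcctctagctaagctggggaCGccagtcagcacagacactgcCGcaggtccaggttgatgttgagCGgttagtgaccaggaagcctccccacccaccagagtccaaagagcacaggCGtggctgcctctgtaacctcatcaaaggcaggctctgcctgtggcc
COL4A1 and UCHL1, without a read in ASPC1, had 38 and 20 CG dinucleotides in this window, while TM4SF4 and EPS8L3, without a read in Panc3.27, had 4 each. Of the 10892 tested protein-coding genes with a matched RefSeq promoter, 96.1% had no more CG than COL4A1. That share was 50% for UCHL1 and 9.5% for TM4SF4. Windows with at most 5 CG made up 11.4% of these promoters, 22.9% of those of genes called higher, 29.3% of those of genes called lower and 7.02% of those of genes not called. The windows of the 96 matched genes that were at 10 CPM or more in Panc3.27 with no read in ASPC1 had a median of 16 CG (quartiles 9 and 25). Those of the 14 matched genes of the opposite kind had a median of 13.5 (quartiles 4 and 19.5), so the 4 promoters shown do not stand for all. CG-poor promoters were thus a larger share in both called sets than among genes that were not called. DNA methylation was not measured, and a count of CG says nothing about it.

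Among long non-coding genes at 20 CPM or more, 13 were called higher and 27 lower, and those named here were chosen after their values were seen. At any level 674 were called higher and 505 lower, so the balance of directions changes with the level asked for. How many were tested at 20 CPM or more was not counted, so these counts give no share of their own. MIR205HG (chromosome 1, 209428817 to 209432838), the host transcript of a microRNA of stratified epithelium, had 638, 902 and 636 CPM in the 3 Panc3.27 libraries, against no read in any of the 3 ASPC1 libraries. LINC00958 had 138 ± 8.46 CPM in Panc3.27 and 0.698 ± 0.117 CPM in ASPC1. PROSER2-AS1 had 54.3 ± 2.36 CPM in Panc3.27 and 0.256 ± 0.0412 CPM in ASPC1. LINC02864 had no read in any of the 3 Panc3.27 libraries and 78.4 ± 4.71 CPM in ASPC1. SSTR5-AS1 had 0.234 ± 0.173 CPM in Panc3.27 and 128 ± 5.24 CPM in ASPC1. MIR194-2HG (chromosome 11, 64889560 to 64893449), the host of microRNAs of the intestine and liver, had 0.0757, 0.0935 and 0.255 CPM in the 3 Panc3.27 libraries, against 41.8, 35.9 and 41.4 CPM in the 3 ASPC1 libraries. LINC00958, PROSER2-AS1 and MIR205HG were higher and the other genes lower. The 2 host genes thus lay on opposite sides, and the mature microRNAs inside them are shown, with the seed (bases 2 to 8) in capitals, because they mark the squamous and the gut epithelium.
hsa-miR-205-5p, in MIR205HG: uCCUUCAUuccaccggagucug
hsa-miR-192-5p, in MIR194-2HG: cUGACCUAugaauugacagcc
hsa-miR-194-5p, in MIR194-2HG: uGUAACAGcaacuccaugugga
The sequences are RefSeq's (GRCh38.p14), and their positions fall inside the 2 host genes. The 3 seeds differ. The libraries count the host transcripts, and the microRNAs themselves were not measured.

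The lists used to group the genes hold 1218 entries in 42 lists. The share of members called in each list is drawn beside that of all autosomal genes, many of which did not pass the filter. Counts of members that passed are to be read against the 18.0% called higher and 10.1% called lower among all tested genes, and medians against 0.09.

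More than 50% of the squamous and of the basal-like list was called higher in Panc3.27, including TP63 and KRT5, while several other members were well expressed in ASPC1. Of the squamous list's 22 autosomal members, 19 passed the filter, 12 were called higher and 2 lower, with a median log2 fold change of 2.86. Of the basal-like list's 24 autosomal members, 23 passed the filter, 15 were called higher and 3 lower. Their median was 6.20, or 3.30 with the genes that had no read in a line set at their bound. TP63 (chromosome 3, 189631389 to 189897276) had 461, 413 and 404 CPM in the 3 Panc3.27 libraries, against 0.513, 0.0597 and 0.31 CPM in the 3 ASPC1 libraries. It was 1397-fold higher (95% interval 1087 to 1795), with log2 fold change 10.45, SE 0.17, edgeR adjusted p = 5.77e-18. KRT5, the basal-cell keratin, had 468, 439 and 477 CPM in the 3 Panc3.27 libraries, against 2 counts in all over the 3 ASPC1 libraries. Its log2 fold change and test were 14.35 (SE 0.152, edgeR adjusted p = 1.77e-19). Both were abundant in all Panc3.27 libraries and at most traces in ASPC1. PKP1, a desmosomal plaque protein, had 321 ± 13.1 CPM in Panc3.27 and 0.0846 ± 0.0261 CPM in ASPC1. TRIM29, a gene of basal epithelial cells, had 163 ± 10.2 CPM in Panc3.27 and 1.92 ± 0.157 CPM in ASPC1. CALML3, a calmodulin-like protein of stratified epithelium, had 55 ± 3.34 CPM in Panc3.27 and no read in any of the 3 ASPC1 libraries. Of the 7 desmosomal cadherins, 4 were called higher and 1 lower. DSC3 was higher, at 478 CPM in Panc3.27 and 12 CPM in ASPC1, as was DSG3, at 314 CPM in Panc3.27 and 43.7 CPM in ASPC1. DSG4 was lower, at 0.206 CPM in Panc3.27 and 2.89 CPM in ASPC1, while DSG2 (539.7 CPM in Panc3.27 and 1161 CPM in ASPC1) and DSC2 (268 CPM in Panc3.27 and 292 CPM in ASPC1) were not called. The desmosomal plaque gene DSP was not called, at 1728 ± 93 CPM in Panc3.27 and 571 ± 21.9 CPM in ASPC1. LAMB3, a chain of the laminin that anchors hemidesmosomes, had 664 ± 51 CPM in Panc3.27 and 152 ± 13.4 CPM in ASPC1. LAMA3, another chain of it, was not called at 279 CPM in Panc3.27 and 162 CPM in ASPC1. Set against ASPC1 with siCTRL in place of DMSO, DSG3 and LAMB3 were no longer called, with log2 fold changes of 1.72 and 1.65. From the basal-like list, CTSV, a cysteine protease of stratified epithelium, had 382 ± 21.4 CPM in Panc3.27 and 2.22 ± 0.255 CPM in ASPC1. S100A2, a calcium-binding protein of basal epithelial cells, had 85.9 ± 16.1 CPM in Panc3.27 and 3.03 ± 0.592 CPM in ASPC1. The cornified-envelope genes of terminal differentiation were low or without reads. IVL, involucrin, had no read in either line, and SPRR1A and SPRR2A did not pass the filter. Members on the ASPC1 side were the kallikreins KLK10 (33.3 CPM in Panc3.27 and 503 CPM in ASPC1) and KLK8 (0.999 CPM in Panc3.27 and 7.07 CPM in ASPC1) of the squamous list. From the basal-like list they were DHRS9 (0.0401 CPM in Panc3.27 and 68.2 CPM in ASPC1), FAM83A (12.3 CPM in Panc3.27 and 351 CPM in ASPC1) and LEMD1 (0.0634 CPM in Panc3.27 and 1.19 CPM in ASPC1).

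The keratins that were called, intermediate filaments of epithelia, were higher with 1 exception. Of 29 autosomal members, 22 passed the filter, 14 were called higher and 1 lower. KRT17, a keratin of basal and activated epithelium, had 387, 433 and 478 CPM in the 3 Panc3.27 libraries, against 0.243, 0.209 and 0.198 CPM in the 3 ASPC1 libraries. KRT7, a keratin of ducts, had 731, 716 and 760.5 CPM in the 3 Panc3.27 libraries, against 2.51, 2.95 and 3.02 CPM in the 3 ASPC1 libraries. For both, every Panc3.27 library lay far above every ASPC1 library. KRT13, a keratin of mucosal stratified epithelium, had 48.1 ± 1.39 CPM in Panc3.27 and 0.0832 ± 0.0526 CPM in ASPC1. KRT14, the partner of KRT5, had 10.1 ± 0.115 CPM in Panc3.27 and 0.0572 ± 0.0308 CPM in ASPC1. KRT80 had 219 ± 8.07 CPM in Panc3.27 and 45.6 ± 4.43 CPM in ASPC1. The exception was KRT8, the type II keratin of simple epithelium, which was 4.76-fold lower (95% interval 4.25 to 5.33). It had 1623, 1605 and 1659 CPM in the 3 Panc3.27 libraries, against 7336, 8187 and 7727 CPM in the 3 ASPC1 libraries. Against ASPC1 siCTRL its log2 fold change was -1.72, under the 4-fold rule. KRT16 and KRT15 were not called. KRT16 had 23.8 ± 2.41 CPM in Panc3.27 and 25.7 ± 2.89 CPM in ASPC1. KRT15 had 11.1 ± 1.33 CPM in Panc3.27 and 20.6 ± 1.75 CPM in ASPC1. KRT6A, KRT6B and KRT6C are near-identical, as are KRT81, KRT83 and KRT86, so how reads were divided within each set is uncertain.

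The transcription factors of gut and foregut epithelium lay mostly on the ASPC1 side. Of the list's 37 autosomal members, 30 passed the filter, 8 were called higher and 15 lower, with a median log2 fold change of -1.82. HNF4A (chromosome 20, 44355700 to 44434596), a nuclear receptor of liver and intestine, had 0.505, 0.538 and 0.418 CPM in the 3 Panc3.27 libraries, against 272, 294 and 285 CPM in the 3 ASPC1 libraries. It was 580.1-fold lower (95% interval 502 to 671), with log2 fold change -9.18, SE 0.0986, edgeR adjusted p = 1.77e-19. CDX2, the intestinal homeobox factor, had no read in any of the 3 Panc3.27 libraries, against 24.5, 27.7 and 27.7 CPM in the 3 ASPC1 libraries. PDX1, the homeobox factor of the pancreatic anlage, had no read in any of the 3 Panc3.27 libraries, against 15.4, 15.7 and 15.1 CPM in the 3 ASPC1 libraries. GATA6, whose level is used to mark classical PDAC, had 1.69, 1.61 and 1.93 CPM in the 3 Panc3.27 libraries, against 58.6, 66 and 66.1 CPM in the 3 ASPC1 libraries. For all of these the highest Panc3.27 library lay under the lowest ASPC1 library, and GATA6 was 36.4-fold lower (95% interval 31.5 to 42). HNF4G had 0.215 ± 0.0155 CPM in Panc3.27 and 103 ± 2.22 CPM in ASPC1. NR5A2, a nuclear receptor of the exocrine pancreas, had 3 counts in all over the 3 Panc3.27 libraries and 107 ± 5.18 CPM in ASPC1. Factors shared by many glandular epithelia were lower too. KLF4 had 5.68 ± 0.139 CPM in Panc3.27 and 65.8 ± 6.41 CPM in ASPC1. SOX9, a factor of ducts, had 39.9 ± 1.84 CPM in Panc3.27 and 188 ± 9.42 CPM in ASPC1. CREB3L3, an intestinal and hepatic factor, had 1 count in all over the 3 Panc3.27 libraries and 147 ± 7.54 CPM in ASPC1. The members called higher were led by factors of other parts of the foregut. SOX2, a factor of stratified foregut epithelium, had 77.7, 77.4 and 88.5 CPM in the 3 Panc3.27 libraries, against no read in any of the 3 ASPC1 libraries. BARX1, a homeobox factor of stomach mesenchyme, had 46.6 ± 5.4 CPM in Panc3.27 and no read in any of the 3 ASPC1 libraries. RUNX3 had 23.5 ± 1.19 CPM in Panc3.27 and 2.55 ± 0.415 CPM in ASPC1. ONECUT1, a factor of liver and pancreas development, was also called higher, with 5.65 ± 0.894 CPM in Panc3.27 and 0.0481 ± 0.0435 CPM in ASPC1. GATA4 (10.9 CPM in Panc3.27 and 11.3 CPM in ASPC1), FOXA1 (21.1 CPM in Panc3.27 and 15.8 CPM in ASPC1), KLF5 (168 CPM in Panc3.27 and 326 CPM in ASPC1) and EHF (163 CPM in Panc3.27 and 413 CPM in ASPC1) were not called, and FOXA2 did not pass the filter.

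Genes of the intestinal brush border, the microvillus-bearing surface of absorptive cells, were expressed in ASPC1 and mostly near 0 in Panc3.27. Of 34 autosomal members, 24 passed the filter, 3 were called higher and 18 lower. Their median log2 fold change was -6.87, or -5.99 with zeros at their bound. CDH17, the liver-intestine cadherin, had 0.353, 0.304 and 0.186 CPM in the 3 Panc3.27 libraries, against 2378, 2377 and 2232 CPM in the 3 ASPC1 libraries. It was 8254-fold lower (95% interval 6808 to 10008). GPA33, an intestinal surface antigen, had 3 counts in all over the 3 Panc3.27 libraries, against 293, 316 and 305 CPM in the 3 ASPC1 libraries. Both were abundant in every ASPC1 library and traces in Panc3.27. The structural proteins of the microvillus were lower as well. VIL1, villin, had 2.23 ± 0.294 CPM in Panc3.27 and 309 ± 6.22 CPM in ASPC1. USH1C, a scaffold between microvilli, had 1 count in all over the 3 Panc3.27 libraries and 207 ± 7.75 CPM in ASPC1. MYO1A, a microvillus myosin, had 0.449 ± 0.132 CPM in Panc3.27 and 168 ± 5.44 CPM in ASPC1. The intermicrovillar cadherins CDHR2 (1.11 CPM in Panc3.27 and 148 CPM in ASPC1) and CDHR5 (0.0795 CPM in Panc3.27 and 48.6 CPM in ASPC1) and their partner MYO7B (4.84 CPM in Panc3.27 and 157 CPM in ASPC1) were lower too. Of the digestive surface enzymes, DPP4 had 8.21 ± 0.283 CPM in Panc3.27 and 324 ± 16.4 CPM in ASPC1. ANPEP had 4.58 ± 0.362 CPM in Panc3.27 and 105 ± 3.08 CPM in ASPC1. SLC15A1, the peptide transporter, had 4.11 ± 0.165 CPM in Panc3.27 and 422 ± 3.68 CPM in ASPC1. Several genes of mature absorptive cells were too low to test. SI, APOA4, FABP1, ALPI and MEP1A did not pass the filter.

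The classical PDAC list lay on the same side. Of its 28 autosomal members, 23 passed the filter, 1 was called higher and 16 lower. Their median log2 fold change was -5.18, or -3.86 with zeros at their bound. TSPAN8, a tetraspanin, had 0.101, 0 and 0.139 CPM in the 3 Panc3.27 libraries, against 641, 684 and 661 CPM in the 3 ASPC1 libraries. CEACAM6, an adhesion molecule and tumour antigen, had 1.29, 1.17 and 1.16 CPM in the 3 Panc3.27 libraries, against 2265, 2143 and 2021 CPM in the 3 ASPC1 libraries. CEACAM5, the carcinoembryonic antigen, had 1.18 ± 0.184 CPM in Panc3.27 and 79.1 ± 11.4 CPM in ASPC1. CEACAM5 and CEACAM6 share much of their sequence, so the division of reads between them is uncertain. LGALS4, the intestinal galectin, had 0.437 ± 0.0468 CPM in Panc3.27 and 327 ± 10.2 CPM in ASPC1. AGR2, a disulfide isomerase of mucus-secreting cells, was not called at 89.7 ± 0.411 CPM in Panc3.27 and 119 ± 9.31 CPM in ASPC1. Trefoil factors, which are part of this state, were scarce in both lines. TFF1 did not pass the filter, and TFF2 and TFF3 were called lower with levels under 1 CPM in ASPC1. CTSE also stayed under 1 CPM in both. CDH17, CEACAM6, LGALS4, GATA6 and MYO1A stand in several of these lists, so the lists are not independent.

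Mucins, the glycoproteins of the mucosal surface, differed in both directions. Of the mucin and trefoil list's 20 autosomal members, 16 passed the filter, 7 were called higher and 7 lower. MUC16, the carrier of the CA125 epitope, had 384, 293 and 293 CPM in the 3 Panc3.27 libraries, against 2 counts in all over the 3 ASPC1 libraries. MUC4, a membrane mucin, had 23.5 ± 2.62 CPM in Panc3.27 and 0.589 ± 0.168 CPM in ASPC1. MUC17, an intestinal membrane mucin, lay on the other side. It had 0.0757, 0 and 0.0232 CPM in the 3 Panc3.27 libraries, against 633, 568 and 504 CPM in the 3 ASPC1 libraries. MUC13 had 0.0396 ± 0.0484 CPM in Panc3.27 and 212 ± 22.6 CPM in ASPC1. MUC3A had 1.66 ± 0.31 CPM in Panc3.27 and 79 ± 8.78 CPM in ASPC1. The secreted mucin MUC5B was lower too, with 0.102 ± 0.073 CPM in Panc3.27 and 16.8 ± 2.61 CPM in ASPC1. MUC1 was not called at 8.99 ± 0.384 CPM in Panc3.27 and 31.8 ± 3.97 CPM in ASPC1. Among the CEACAM and lectin genes, the galectins differed in direction. LGALS1 had 224 ± 23.9 CPM in Panc3.27 and 38.7 ± 6.13 CPM in ASPC1. LGALS3 had 72.4 ± 7.14 CPM in Panc3.27 and 413 ± 43.3 CPM in ASPC1. LGALS7 and LGALS7B, galectins of stratified epithelium, are near-identical. LGALS7 had 2.65 CPM in Panc3.27 and 0 CPM in ASPC1. LGALS7B had 2.73 CPM in Panc3.27 and 0 CPM in ASPC1. CEACAM1 was lower, with 0.254 ± 0.051 CPM in Panc3.27 and 149 ± 14 CPM in ASPC1. Claudins, the strand proteins of tight junctions, were likewise mixed. Of their 20 autosomal members, 12 passed the filter, 6 were called higher and 3 lower. CLDN1, a sealing claudin, had 626 ± 57.5 CPM in Panc3.27 and 85.7 ± 8.07 CPM in ASPC1. CLDN3 had 3.06 ± 0.464 CPM in Panc3.27 and 73.8 ± 10.2 CPM in ASPC1. CLDN12 had 32.3 ± 2.04 CPM in Panc3.27 and 138 ± 4.95 CPM in ASPC1. CLDN4 (128 CPM in Panc3.27 and 432 CPM in ASPC1) and CLDN7 (144 CPM in Panc3.27 and 58.5 CPM in ASPC1) were not called.

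Panc3.27 held more of the epithelial junction programme and at the same time more of the extracellular genes that mesenchymal lists contain. Of the epithelial junction and splicing list's 30 autosomal members, 30 passed the filter, 14 were called higher and 3 lower, with a median log2 fold change of 1.53. CDH1 (chromosome 16, 68737292 to 68835537), E-cadherin, had 750.3, 661 and 677 CPM in the 3 Panc3.27 libraries, against 130.3, 127 and 116 CPM in the 3 ASPC1 libraries. It was 5.6-fold higher (95% interval 5.05 to 6.21), with log2 fold change 2.49, SE 0.070, edgeR adjusted p = 5.64e-15. CDH3, P-cadherin, had 479 ± 31 CPM in Panc3.27 and 4.62 ± 0.655 CPM in ASPC1. GRHL2, an activator of epithelial junction genes, had 136, 125 and 131 CPM in the 3 Panc3.27 libraries, against 0, 0.0895 and 0.0564 CPM in the 3 ASPC1 libraries. ASPC1 thus carried E-cadherin with next to no GRHL2 transcript. RAB25, an epithelial trafficking GTPase, had 69.2 ± 3.05 CPM in Panc3.27 and 0.0572 ± 0.0308 CPM in ASPC1. AP1M2, an epithelial sorting adaptor, had 71.7 ± 4.24 CPM in Panc3.27 and 0.113 ± 0.0487 CPM in ASPC1. The splicing regulators followed. ESRP1 had 154 ± 5.03 CPM in Panc3.27 and 31.3 ± 1.45 CPM in ASPC1. ESRP2 had 111 ± 2.24 CPM in Panc3.27 and 21 ± 1.03 CPM in ASPC1. On the ASPC1 side, beside CLDN3, were TJP3, a tight-junction scaffold (6.26 CPM in Panc3.27 and 141 CPM in ASPC1), and ELF3, an epithelial factor (47.7 CPM in Panc3.27 and 256 CPM in ASPC1). OCLN (88.2 CPM in Panc3.27 and 62.2 CPM in ASPC1) and ST14 (198 CPM in Panc3.27 and 224 CPM in ASPC1) were not called.

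Of the mesenchymal list's 35 autosomal members, 29 passed the filter, 16 were called higher and 2 lower, with a median log2 fold change of 2.56. The members called lower were vimentin, given above, and ZEB1, the repressor of epithelial genes. ZEB1 had 0, 0.14 and 0.0464 CPM in the 3 Panc3.27 libraries, against 56.4, 53.9 and 47.4 CPM in the 3 ASPC1 libraries. Many of those called higher encode secreted matrix or contractile proteins. FN1 (chromosome 2, 215360440 to 215436073), fibronectin, had 1800.5, 1502 and 1562 CPM in the 3 Panc3.27 libraries, against 0.108, 0.268 and 0.141 CPM in the 3 ASPC1 libraries. It was 9369-fold higher (95% interval 7427 to 11817). SPARC, a matrix glycoprotein, had 347, 315 and 323 CPM in the 3 Panc3.27 libraries, against 0.027, 0.179 and 0.0282 CPM in the 3 ASPC1 libraries. In both genes every Panc3.27 library lay above every ASPC1 library. CAV1, caveolin-1, had 863 ± 56.4 CPM in Panc3.27 and 63.6 ± 3.41 CPM in ASPC1. COL6A2 had 85.3 ± 5.98 CPM in Panc3.27 and no read in any of the 3 ASPC1 libraries. COL5A1 had 52.4 ± 2.12 CPM in Panc3.27 and 2 counts in all over the 3 ASPC1 libraries. Collagen chains and their cross-linkers thus lay on the same side. LOXL2, a collagen cross-linker, had 64.1 ± 2.41 CPM in Panc3.27 and 0.656 ± 0.123 CPM in ASPC1. MYL9, a myosin light chain, had 49.6 ± 4.92 CPM in Panc3.27 and 0.271 ± 0.121 CPM in ASPC1. The repressors of E-cadherin gave mixed results. TWIST1 had 6.3 ± 0.378 CPM in Panc3.27 and no read in any of the 3 ASPC1 libraries. SNAI1 had 6.6 ± 0.461 CPM in Panc3.27 and 1.09 ± 0.117 CPM in ASPC1. SNAI2 was not called, with 30.7 ± 1.72 CPM in Panc3.27 and 34.8 ± 2.65 CPM in ASPC1. CDH2, N-cadherin, and ZEB2 did not pass the filter, and CD44 (412 CPM in Panc3.27 and 965 CPM in ASPC1) and AXL (88.2 CPM in Panc3.27 and 284 CPM in ASPC1) were not called.

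Further matrix genes were mostly on the Panc3.27 side. Of the laminin, collagen and matrix list's 48 autosomal members, 43 passed the filter, 24 were called higher and 3 lower. Their median log2 fold change was 4.18, or 3.62 with zeros at their bound. COL4A2, the partner chain of COL4A1, had 722, 750.1 and 858 CPM in the 3 Panc3.27 libraries, against 0.162, 0.119 and 0.169 CPM in the 3 ASPC1 libraries. COL4A1 and COL4A2 overlap, so they are not separate loci, and the window shown for COL4A1 is not to be read as that gene's alone. LAMA1, a laminin chain of embryonic basement membrane, had 261 ± 15.4 CPM in Panc3.27 and 3 counts in all over the 3 ASPC1 libraries. COL12A1 had 233 ± 17.8 CPM in Panc3.27 and 0.0666 ± 0.0198 CPM in ASPC1. COL4A2 and LAMA1 belong to basement membrane, COL12A1 to the surface of collagen fibrils. COL5A2 had 178 ± 11.9 CPM in Panc3.27 and 5.19 ± 0.139 CPM in ASPC1. COL7A1, the anchoring-fibril collagen, had 133 ± 20.2 CPM in Panc3.27 and 4.0 ± 0.826 CPM in ASPC1. FBLN1, a fibulin, had 119.8 ± 6.51 CPM in Panc3.27 and 0.254 ± 0.0512 CPM in ASPC1. The 3 members called lower were VCAN, THBS2 and LAMA4. VCAN, the proteoglycan versican, had 99.2, 86.2 and 85.8 CPM in the 3 Panc3.27 libraries, against 2556, 2533 and 2309 CPM in the 3 ASPC1 libraries. THBS2, a thrombospondin, had 0.509 ± 0.264 CPM in Panc3.27 and 458 ± 13.7 CPM in ASPC1. LAMA4 had 0.0408 ± 0.0303 CPM in Panc3.27 and 72.4 ± 2.13 CPM in ASPC1. COL1A1 and LUM, both also markers of fibroblasts, went opposite ways. COL1A1 had 68.4 ± 1.56 CPM in Panc3.27 and 0.498 ± 0.183 CPM in ASPC1. LUM, lumican, had 0.423 ± 0.0485 CPM in Panc3.27 and 111 ± 6.54 CPM in ASPC1. COL1A2, the partner chain of COL1A1, did not pass the filter. The 8 fibroblast and stellate markers, all with a count in each line, summed to 73.6 to 75.5 CPM in Panc3.27 and 107.7 to 119.8 CPM in ASPC1. DCN, decorin, was at 0.111 CPM in Panc3.27 and 0.253 CPM in ASPC1. In the longer list of 15 such genes, in which 1 symbol has a pair of identifiers, 10 passed the filter, 7 were called higher and 1 lower. The part of other cells in the matrix values was not tested.

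Integrins, the receptors for this matrix, differed in both directions. Of their list's 30 autosomal members, 26 passed the filter, 9 were called higher and 5 lower. ITGA5, the fibronectin receptor chain, had 311, 286 and 307 CPM in the 3 Panc3.27 libraries, against 4.89, 5.31 and 5.62 CPM in the 3 ASPC1 libraries. ITGB1, the beta chain shared by most matrix receptors, had 341, 325 and 330.0 CPM in the 3 Panc3.27 libraries, against 1749, 1781 and 1664 CPM in the 3 ASPC1 libraries. It was 5.22-fold lower (95% interval 4.74 to 5.74). ITGA4 had 16.1 ± 1.59 CPM in Panc3.27 and 1 count in all over the 3 ASPC1 libraries. The kindlins, which activate integrins, lay on opposite sides. FERMT2 had 36.3 ± 4.27 CPM in Panc3.27 and 1 count in all over the 3 ASPC1 libraries. FERMT1 had 138 ± 9.37 CPM in Panc3.27 and 786 ± 21.9 CPM in ASPC1. ITGB4 and ITGA6, which form the hemidesmosomal integrin, were not called. ITGB4 had 1041 ± 60.8 CPM in Panc3.27 and 3241 ± 169 CPM in ASPC1. ITGA6 had 760.3 ± 50.6 CPM in Panc3.27 and 869 ± 42.1 CPM in ASPC1.

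Of the protease and inhibitor list's 51 autosomal members, 44 passed the filter, 17 were called higher and 11 lower. The matrix metalloproteinases MMP13, MMP10, MMP1 and MMP2 were on the Panc3.27 side. MMP13, a collagenase, had 524, 469.7 and 467 CPM in the 3 Panc3.27 libraries, against 0.081, 0.0895 and 0.0564 CPM in the 3 ASPC1 libraries. MMP10, a stromelysin, had 258, 247 and 255 CPM in the 3 Panc3.27 libraries, against 1 count in all over the 3 ASPC1 libraries. MMP2, a gelatinase, had 25.3 ± 1.03 CPM in Panc3.27 and no read in any of the 3 ASPC1 libraries. MMP7, matrilysin of glandular epithelium, lay on the other side, as did MMP28 (0.585 CPM in Panc3.27 and 53.3 CPM in ASPC1). MMP7 had 1.82, 1.92 and 1.62 CPM in the 3 Panc3.27 libraries, against 231, 218 and 222 CPM in the 3 ASPC1 libraries. SERPINE2, an inhibitor of thrombin and plasminogen activators, had 5.2, 4.28 and 5.31 CPM in the 3 Panc3.27 libraries, against 1214, 1158 and 1125 CPM in the 3 ASPC1 libraries. PLAT, tissue plasminogen activator, had 48.1 ± 2.7 CPM in Panc3.27 and 1012 ± 46.5 CPM in ASPC1. Both members of this enzyme and inhibitor pair were thus lower. KLK5, a kallikrein of stratified epithelium, had 227 ± 12.8 CPM in Panc3.27 and 1.35 ± 0.362 CPM in ASPC1. KLK11 had 5.54 ± 0.701 CPM in Panc3.27 and 131 ± 4.07 CPM in ASPC1. Of the S100 calcium-binding proteins' 19 autosomal members, 16 passed the filter, 6 were called higher and 2 lower. S100A4, a member often studied in metastasis, had 3.48, 4.07 and 5.13 CPM in the 3 Panc3.27 libraries, against 758, 849 and 949 CPM in the 3 ASPC1 libraries. S100A14 had 43.2 ± 4.53 CPM in Panc3.27 and 4.32 ± 0.359 CPM in ASPC1. S100A6 (319 CPM in Panc3.27 and 877 CPM in ASPC1) and S100A10 (376 CPM in Panc3.27 and 1045 CPM in ASPC1) were not called.

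Inflammatory chemokines and cytokines were mostly higher in Panc3.27. Of 31 autosomal members, 28 passed the filter, 19 were called higher and 5 lower. Their median log2 fold change was 4.52, or 3.90 with zeros at their bound. CXCL8, the neutrophil chemokine interleukin-8, had 234, 222 and 230.2 CPM in the 3 Panc3.27 libraries, against 3.24, 3.7 and 2.51 CPM in the 3 ASPC1 libraries. It was 72.7-fold higher (95% interval 63.1 to 83.7). CXCL1, another ligand of the receptor CXCR2, was called higher too. Among the cytokines, IL1A, interleukin-1 alpha, had 70.4 ± 2.4 CPM in Panc3.27 and 0.493 ± 0.108 CPM in ASPC1. TNF had 21.7 ± 1.33 CPM in Panc3.27 and 0.0863 ± 0.0847 CPM in ASPC1. IL32 had 68 ± 2.46 CPM in Panc3.27 and 3.68 ± 0.0602 CPM in ASPC1. Of these, IL1A and TNF were under 1 CPM in ASPC1, whereas CXCL8 and IL32 were above it. CCL28, a mucosal chemokine, had 196 ± 17.6 CPM in Panc3.27 and 2.25 ± 0.535 CPM in ASPC1. IL11, a cytokine of the interleukin-6 family, had 23.8 ± 1.26 CPM in Panc3.27 and 0.284 ± 0.101 CPM in ASPC1. A few members lay on the other side. CXCL5, also a ligand of CXCR2, had 1 count in all over the 3 Panc3.27 libraries and 3.06 ± 0.321 CPM in ASPC1. LIF, of the interleukin-6 family like IL11, had 41.3 ± 3.05 CPM in Panc3.27 and 208 ± 5.53 CPM in ASPC1. IL18 had 21.2 ± 0.998 CPM in Panc3.27 and 168 ± 9.46 CPM in ASPC1. CXCL2 (2.45 CPM in Panc3.27 and 5.64 CPM in ASPC1) and CXCL3 (1.63 CPM in Panc3.27 and 3.03 CPM in ASPC1) were not called.

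Receptor tyrosine kinases and their ligands went in both directions. Of 39 autosomal members, 33 passed the filter, 8 were called higher and 9 lower. MET, the receptor of hepatocyte growth factor, had 199, 179 and 181 CPM in the 3 Panc3.27 libraries, against 1596, 1524 and 1487 CPM in the 3 ASPC1 libraries. It was 8.25-fold lower (95% interval 7.45 to 9.13). EPHA2, an ephrin receptor, had 108 ± 4.72 CPM in Panc3.27 and 467 ± 27 CPM in ASPC1. FGFR4 had 16 ± 0.921 CPM in Panc3.27 and 103 ± 13.3 CPM in ASPC1. The FGF receptors were divided. FGFR1 had 11 ± 0.384 CPM in Panc3.27 and 83.5 ± 1.35 CPM in ASPC1. FGFR2, the receptor of keratinocyte growth factor, had 124 ± 5.75 CPM in Panc3.27 and 20.5 ± 2.3 CPM in ASPC1. FGFR3 had 119 ± 10.0 CPM in Panc3.27 and 7.07 ± 1.1 CPM in ASPC1. FGFR1 and FGFR4 were thus lower in Panc3.27 and FGFR2 and FGFR3 higher. MST1R, a relative of MET, had 27 ± 1.4 CPM in Panc3.27 and 111 ± 4.95 CPM in ASPC1. Its call rested on Panc3.27 vector replicate 1, without which its log2 fold change was -1.99. The orphan receptor ROR1 had 1.18 ± 0.182 CPM in Panc3.27 and 61 ± 0.275 CPM in ASPC1. The ligands EGF (18.4 CPM in Panc3.27 and 0.0648 CPM in ASPC1) and NRG1 (11.4 CPM in Panc3.27 and 0.135 CPM in ASPC1) and the receptor ERBB4 (12.1 CPM in Panc3.27 and 0.0469 CPM in ASPC1) were higher. EGFR, ERBB3 and IGF1R were not called. EGFR had 1996 ± 182 CPM in Panc3.27 and 1717 ± 81.7 CPM in ASPC1. ERBB3 had 199 ± 4.67 CPM in Panc3.27 and 580.2 ± 25.2 CPM in ASPC1. IGF1R had 493 ± 41.7 CPM in Panc3.27 and 178 ± 7.62 CPM in ASPC1.

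In the TGF-beta pathway, which signals through a receptor pair to SMAD proteins, the receptors differed in opposite directions. Of the TGF-beta and BMP list's 39 autosomal members, 37 passed the filter, 11 were called higher and 7 lower. TGFBR1 had 251, 235 and 253 CPM in the 3 Panc3.27 libraries, against 42.7, 42.3 and 47.1 CPM in the 3 ASPC1 libraries. TGFBR2, its ligand-binding partner, had 105, 94.2 and 94.1 CPM in the 3 Panc3.27 libraries, against 909.7, 879 and 845 CPM in the 3 ASPC1 libraries. TGFBR2 was 8.99-fold lower (95% interval 8.14 to 9.93), and neither gene's libraries overlapped between the lines. Among the ligands, BMP4 had 3 counts in all over the 3 Panc3.27 libraries, against 193, 195 and 185 CPM in the 3 ASPC1 libraries. TGFB2 had 123 ± 7.04 CPM in Panc3.27 and 8.66 ± 0.907 CPM in ASPC1. BMP7 had 3.48 ± 0.888 CPM in Panc3.27 and 48.9 ± 2.28 CPM in ASPC1. BMP4 and BMP7 were lower and TGFB2 higher. The BMP target ID3 had 158 ± 4.68 CPM in Panc3.27 and 0.694 ± 0.324 CPM in ASPC1. ID1, a target of the same kind, was not called at 48.4 ± 3.34 CPM in Panc3.27 and 106 ± 7.15 CPM in ASPC1. SMAD2, SMAD3 and SMAD4, the signal transducers, were expressed and not called. SMAD6, an inhibitor, was lower, with 24 ± 1.0 CPM in Panc3.27 and 179.8 ± 10.8 CPM in ASPC1.

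WNT pathway genes were called in both directions. Of its 40 autosomal members, 34 passed the filter, 11 were called higher and 7 lower. WNT7A had 231, 214 and 225 CPM in the 3 Panc3.27 libraries, against 1 count in all over the 3 ASPC1 libraries. WNT4 had 48.2 ± 0.739 CPM in Panc3.27 and 2.94 ± 0.249 CPM in ASPC1. WNT5B had 29.8 ± 0.469 CPM in Panc3.27 and 0.316 ± 0.174 CPM in ASPC1. Of the 13 ligands in the list, 11 passed the filter, 6 were called higher and none lower. The stem-cell receptor LGR5, itself a WNT target, had 15.4 ± 2.04 CPM in Panc3.27 and 96.9 ± 5.6 CPM in ASPC1. Against ASPC1 siCTRL it was not called, with a log2 fold change of -1.24. LGR6 had 0.334 ± 0.104 CPM in Panc3.27 and 193 ± 6.98 CPM in ASPC1. TCF7L2, the nuclear factor of the intestine, had 52.4 ± 1.4 CPM in Panc3.27 and 259.6 ± 14.6 CPM in ASPC1. Among the feedback targets, RNF43 (8.51 CPM in Panc3.27 and 13.1 CPM in ASPC1) was not called, and AXIN2 (0.00841 CPM in Panc3.27 and 8.7 CPM in ASPC1) and NKD1 (0.302 CPM in Panc3.27 and 9.56 CPM in ASPC1) were lower. LEF1, of the same factor family as TCF7L2, was higher with 25.3 ± 2.65 CPM in Panc3.27 and 0.262 ± 0.0794 CPM in ASPC1.

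Genes of MHC class II, which present peptides to helper T cells, were mostly called higher in Panc3.27. Of 15 autosomal members, 14 passed the filter, 11 were called higher and 0 lower. Their median log2 fold change was 4.01, or 3.29 with zeros at their bound. CD74, the invariant chain, had 94.4, 84.9 and 91 CPM in the 3 Panc3.27 libraries, against 0.378, 0.567 and 0.564 CPM in the 3 ASPC1 libraries. CIITA, the transactivator of the class, had 9.4 ± 0.46 CPM in Panc3.27 and 0.85 ± 0.196 CPM in ASPC1. HLA-DRA had 6.55 ± 0.244 CPM in Panc3.27 and 0.205 ± 0.111 CPM in ASPC1. Members not called included HLA-DMA (3.25 CPM in Panc3.27 and 5.71 CPM in ASPC1), CTSS (5.89 CPM in Panc3.27 and 8.76 CPM in ASPC1) and HLA-DOB (0.93 CPM in Panc3.27 and 0.405 CPM in ASPC1). Apart from CD74 the levels stayed below 10 CPM in Panc3.27. The leukocyte markers PTPRC (0.0234 CPM in Panc3.27 and 0.0482 CPM in ASPC1) and MS4A1 (no read) were at or near 0 in Panc3.27. Other markers of that set were higher there, among them CD14 (1.85 CPM in Panc3.27 and 1.03 CPM in ASPC1). CD3E had 1.07 CPM in Panc3.27 and 0.009 CPM in ASPC1. The 7 markers summed to 4.34 to 4.86 CPM in Panc3.27 and 0.837 to 1.46 CPM in ASPC1. The part of leukocytes in the class II values was not tested. Of the MHC class I list's 20 autosomal members, 20 passed the filter, 4 were called higher and 0 lower. HLA-B had 87.9, 80.9 and 93 CPM in the 3 Panc3.27 libraries, against 6.75, 7.64 and 7.9 CPM in the 3 ASPC1 libraries. TAP2, a subunit of the peptide transporter, had 52.2 ± 4.24 CPM in Panc3.27 and 11.8 ± 0.783 CPM in ASPC1. Against ASPC1 siCTRL TAP2 was not called, with a log2 fold change of 1.71. ERAP2, a peptide-trimming protease, had 69.1 ± 4.97 CPM in Panc3.27 and 5.6 ± 1.16 CPM in ASPC1. TAP1 (34.8 CPM in Panc3.27 and 26.8 CPM in ASPC1) and B2M, the common light chain (224 CPM in Panc3.27 and 415 CPM in ASPC1) were not called. HLA genes resemble each other, so the division of reads among them is uncertain. Interferon response genes went both ways. Of their 36 autosomal members, 33 passed the filter, 6 were called higher and 10 lower. OAS1, an antiviral sensor, had 1.97, 1.85 and 2.02 CPM in the 3 Panc3.27 libraries, against 136, 128 and 131 CPM in the 3 ASPC1 libraries. OASL had 0.728 ± 0.0933 CPM in Panc3.27 and 21.4 ± 1.82 CPM in ASPC1. IFI27 had 12.1 ± 1.06 CPM in Panc3.27 and 0.207 ± 0.00928 CPM in ASPC1. IFIH1, another sensor of double-stranded RNA, was on the Panc3.27 side with 14.5 ± 0.38 CPM in Panc3.27 and 2.8 ± 0.374 CPM in ASPC1. STAT2 (76.8 CPM in Panc3.27 and 46.3 CPM in ASPC1), OAS3 (124 CPM in Panc3.27 and 91.7 CPM in ASPC1) and ISG15 (14.7 CPM in Panc3.27 and 9.1 CPM in ASPC1) were not called.

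Among the genes of PDAC drivers and of the region around CDKN2A on chromosome 9, most were not called. Of this list's 35 autosomal members, 33 passed the filter, 5 were called higher and 4 lower. CDKN1A, an inhibitor of cyclin-dependent kinases, was called higher, but not against ASPC1 siCTRL (log2 fold change 1.39). MDM2, a ubiquitin ligase, was not called at 166 ± 9.62 CPM in Panc3.27 and 91.2 ± 2.0 CPM in ASPC1. SMAD4 (58.4 CPM in Panc3.27 and 42.1 CPM in ASPC1), MYC (459 CPM in Panc3.27 and 311 CPM in ASPC1), ARID1A (298 CPM in Panc3.27 and 97.1 CPM in ASPC1) and RNF43 (8.51 CPM in Panc3.27 and 13.1 CPM in ASPC1) were expressed in both lines and not called. SLIT2, a guidance ligand, had 115 ± 8.01 CPM in Panc3.27 and 3 counts in all over the 3 ASPC1 libraries. ROBO1, its receptor, had 24.9 ± 1.96 CPM in Panc3.27 and 2 counts in all over the 3 ASPC1 libraries. CDKN2B, which neighbours CDKN2A on chromosome 9 and encodes the inhibitor INK4B, had no read in any of the 3 Panc3.27 libraries, against 55.5, 55.6 and 53.2 CPM in the 3 ASPC1 libraries. The lack of reads did not reach the next genes on either side. MTAP had 96.4, 97.4 and 94.5 CPM in the 3 Panc3.27 libraries, against 64.7, 62.5 and 64 CPM in the 3 ASPC1 libraries. DMRTA1, beyond CDKN2B, had 11.1 ± 0.862 CPM in Panc3.27 and 5.11 ± 0.483 CPM in ASPC1. At MAP2K4 on chromosome 17 the genes without reads were on the ASPC1 side. ZNF18, the neighbour before it, had 9.16, 10.5 and 9.14 CPM in the 3 Panc3.27 libraries, against no read in any of the 3 ASPC1 libraries. DNAH9 had 0.335 ± 0.0366 CPM in Panc3.27 and no read in any of the 3 ASPC1 libraries. ARHGAP44, on the other side, had 12.5 ± 0.529 CPM in Panc3.27 and 1 count in all over the 3 ASPC1 libraries. ELAC2, the gene after it, was expressed in both, with 168 ± 3.25 CPM in Panc3.27 and 81.9 ± 2.74 CPM in ASPC1. Copy number was not measured here.

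Differences also gathered along chromosomes. Of 278 windows of 10 Mb with at least 10 tested genes, 17 had a median log2 fold change of 1 or more and 12 of -1 or less. The highest median, 2.14, lay on chromosome 18 between 60000001 and 70000000, where 13 of 25 tested genes were called higher and 1 lower. RNF152, a ubiquitin ligase, had 38 ± 1.4 CPM in Panc3.27 and 0.0558 ± 0.0256 CPM in ASPC1 there. SERPINB2, the plasminogen activator inhibitor 2, had 20.9 ± 0.164 CPM in Panc3.27 and 1 count in all over the 3 ASPC1 libraries. It is among 6 neighbouring SERPINB genes called higher in this window, each with at most 1 count in ASPC1. These genes passed the filter only through Panc3.27, so their calls and their part in the median are a description. On chromosome 8 between 70000001 and 80000000 the median was 1.72, with 19 of 39 genes called higher and 1, HNF4G, lower. On chromosome 3 between 180000001 and 190000000, which holds TP63 and SOX2, it was 1.02, with 16 of 65 genes called higher and 0 lower. The next window, which holds CLDN1, had a median of 1.07. The lowest median, -1.34, lay on chromosome 7 between 150000001 and 160000000, where 26 of 65 genes were called lower and 1 higher. SLC4A2, an anion exchanger, had 49.4 ± 4.76 CPM in Panc3.27 and 354 ± 35.3 CPM in ASPC1 there. NOS3, endothelial nitric oxide synthase, had 3.78 ± 0.47 CPM in Panc3.27 and 105 ± 4.18 CPM in ASPC1. On chromosome 10 between 30000001 and 40000000, which holds ITGB1 and ZEB1, 13 of 30 genes were called lower and 0 higher. NRP1, a semaphorin co-receptor in that window, had 42.8 ± 0.802 CPM in Panc3.27 and 264 ± 2.53 CPM in ASPC1.

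ZNF274, the subject of the study, is a KRAB zinc finger protein that recruits the machinery placing H3K9me3, a mark of silent chromatin. ZNF274 (ENSG00000171606.18, chromosome 19, 58183029 to 58213562) had 45.3, 47.7 and 47.4 CPM in the 3 Panc3.27 libraries, against 15.3, 13.1 and 15.1 CPM in the 3 ASPC1 libraries. All Panc3.27 libraries lay above all ASPC1 libraries, by 3.23-fold, which passed the adjusted p and not the 4-fold rule (log2 fold change 1.69, SE 0.0746, edgeR adjusted p = 2.21e-12). The design text describes Panc3.27 as a line with little ZNF274 of its own, without naming mRNA or protein. In these libraries Panc3.27 had more ZNF274 mRNA than ASPC1. Of the H3K9me3 machinery list's 20 autosomal members, 20 passed the filter, 1 was called higher and 0 lower. The called member was TRIM28 (chromosome 19, 58544064 to 58550722), the co-repressor that KRAB domains bind. It had 1038, 994 and 1072 CPM in the 3 Panc3.27 libraries, against 157, 163 and 175 CPM in the 3 ASPC1 libraries. TRIM28 was 6.26-fold higher (95% interval 5.68 to 6.9), with log2 fold change 2.65, SE 0.0662, edgeR adjusted p = 1.2e-15. The other components were within 4-fold. SETDB1, the methyltransferase, had 63.4 ± 2.29 CPM in Panc3.27 and 76.3 ± 5.29 CPM in ASPC1. ATF7IP, its partner, had 105 ± 7.44 CPM in Panc3.27 and 129 ± 9.46 CPM in ASPC1. TASOR of the HUSH complex had 138 ± 5.57 CPM in Panc3.27 and 88 ± 1.64 CPM in ASPC1. The H3K9me3 reader CBX5 was likewise not called, at 753 ± 54.6 CPM in Panc3.27 and 449.7 ± 4.24 CPM in ASPC1.

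Zinc finger genes of chromosome 19, many of which carry H3K9me3, were called higher at a larger share than the other genes of that chromosome. Of 250 protein-coding genes there whose symbol starts with ZNF, 204 passed the filter, and 67 (32.8%) were called higher and 1 lower. Their median log2 fold change was 1.03. The 1051 other tested genes of chromosome 19 also leaned this way, with 227 (21.6%) called higher, 67 (6.37%) lower and a median log2 fold change of 0.44. Off chromosome 19, 224 of 253 ZNF genes passed, 21 (9.38%) were called higher and 10 lower. H3K9me3 peaks, called by the authors in ASPC1 with a control hairpin, covered at least 50% of the gene body in 184 of the 250 genes of chromosome 19. Of the covered genes, 139 passed the filter. Of these 62 (44.6%) were called higher and 1 lower. Of the 66 uncovered genes, 65 passed, and 5 (7.69%) were called higher and none lower. The median log2 fold change was 1.72 for the covered genes and 0.63 for the others. The peaks come from ASPC1 with a hairpin and doxycycline, handled otherwise than the DMSO libraries. Covered genes were thus picked by a measurement in the low line, and the mark was not analysed here in Panc3.27. ZNF606, ZNF850, ZFP30 and ZNF331 had no read in ASPC1, where peaks covered nearly all of the gene body. Their levels in Panc3.27 were 17.5 ± 1.38, 18.6 ± 0.398, 14.8 ± 1.14 and 17.3 ± 1.08 CPM. In the cluster at the end of the chromosome, ZNF134 had 43 ± 0.459 CPM in Panc3.27 and 4.14 ± 0.386 CPM in ASPC1. ZNF772 had 26.4 ± 1.66 CPM in Panc3.27 and 0.506 ± 0.156 CPM in ASPC1. ZNF211 had 21.2 ± 0.431 CPM in Panc3.27 and 1.67 ± 0.342 CPM in ASPC1. These zinc finger genes were chosen after their values were seen. Of 678 covered genes among all autosomal protein-coding genes, only 316 passed the filter. Of these 125 (39.6%) were called higher and 18 (5.70%) lower. Of 18344 uncovered genes 13390 passed, with shares of 17.1% and 9.03%. Leaving out the ZNF symbols, 110 of 415 covered genes passed, with 54 called higher and 17 lower. A covered gene without reads in ASPC1 could pass only through Panc3.27. The shares among genes that passed are thus no comparison of covered with uncovered genes. By call, 5.80% of the genes higher in Panc3.27, 2.02% of the lower ones and 1.78% of those not called had such cover.

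**Figure D1:**
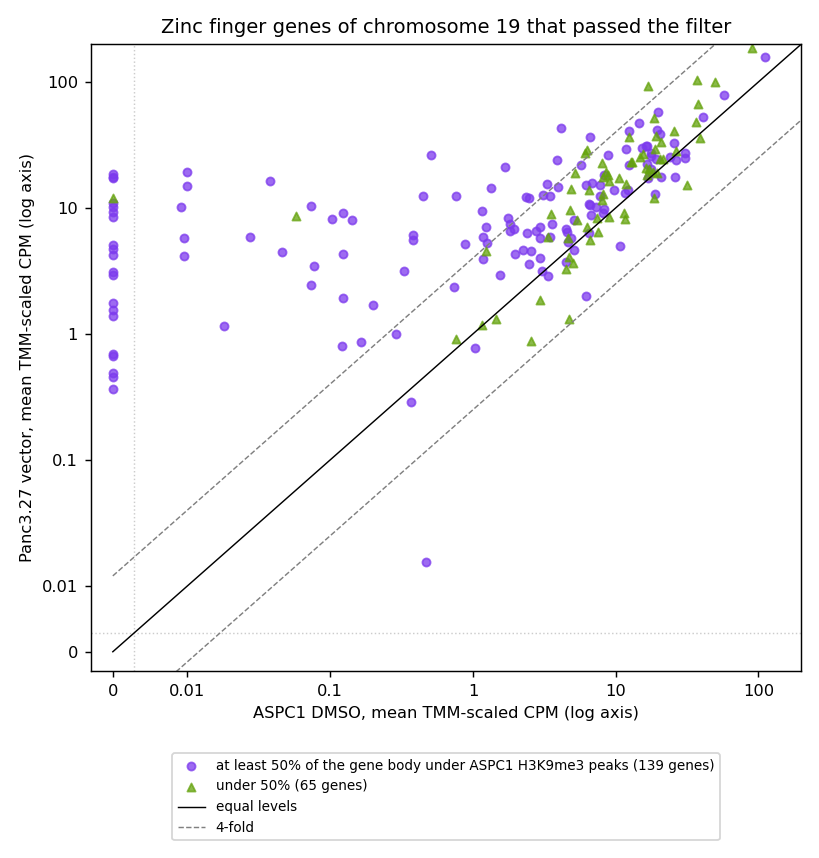
Mean level of 204 zinc finger genes of chromosome 19 in Panc3.27 vector (vertical) and ASPC1 DMSO (horizontal), in TMM-scaled CPM on log axes, with 1 point per gene and lines for equal levels and a 4-fold difference. Covered genes (circles) include 62 of the 67 genes above the 4-fold line that were called higher, many of them at 0 in ASPC1. Uncovered genes (triangles) lie mostly within the 4-fold lines, with a median log2 fold change of 0.63.

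The series concerns resistance to inhibitors of CDK7, the kinase of the transcription factor TFIIH. Of the transcription kinase list's 20 autosomal members, 19 passed the filter, 0 were called higher and 0 lower. CDK7 had 31, 28.7 and 29.5 CPM in the 3 Panc3.27 libraries, against 47, 46.4 and 45.4 CPM in the 3 ASPC1 libraries. It was 1.56-fold lower (95% interval 1.42 to 1.71), which passed the adjusted p and not the 4-fold rule (log2 fold change -0.64, SE 0.0622, edgeR adjusted p = 7.17e-08). MNAT1, its assembly factor, had 28.6 ± 2.21 CPM in Panc3.27 and 15 ± 0.633 CPM in ASPC1. Drug exporters of the ABC family, in contrast, were called in both directions. Of 17 autosomal members, 15 passed the filter, 4 were called higher and 6 lower. ABCG2, an exporter of many kinase inhibitors, had 5.3, 4.37 and 4.87 CPM in the 3 Panc3.27 libraries, against 253, 238 and 243 CPM in the 3 ASPC1 libraries. It was 50.5-fold lower (95% interval 45 to 56.7). ABCC3 had 19.3 ± 0.713 CPM in Panc3.27 and 541 ± 8.57 CPM in ASPC1. ABCC2 had 15.1 ± 0.212 CPM in Panc3.27 and 184 ± 9.57 CPM in ASPC1. These 3 pumps were thus lower in Panc3.27. ABCC4 had 45.2 ± 3.48 CPM in Panc3.27 and 1.99 ± 0.136 CPM in ASPC1. ABCA1, a cholesterol exporter, had 93.6 ± 4.63 CPM in Panc3.27 and 6.68 ± 0.751 CPM in ASPC1. ABCA12, a lipid carrier of skin, had 14.4 ± 2.81 CPM in Panc3.27 and no read in any of the 3 ASPC1 libraries. ABCB1, P-glycoprotein, did not pass the filter, and ABCC1 was not called at 194 CPM in Panc3.27 and 354 CPM in ASPC1.

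Proliferation genes were mostly within 4-fold. Of the cell-cycle list's 46 autosomal members, 46 passed the filter, 1 was called higher and 0 lower. CCND2, cyclin D2, was the called member. It had 84.7, 77.7 and 77.3 CPM in the 3 Panc3.27 libraries, against 1 count in all over the 3 ASPC1 libraries. CCND1, cyclin D1, had 785 ± 27.4 CPM in Panc3.27 and 386 ± 14.5 CPM in ASPC1. MKI67 (753 CPM in Panc3.27 and 682 CPM in ASPC1), TOP2A (427 CPM in Panc3.27 and 398 CPM in ASPC1) and CCNB1 (219 CPM in Panc3.27 and 199 CPM in ASPC1) were not called. Of the cholesterol synthesis list's 27 autosomal members, 27 passed the filter, 0 were called higher and 1 lower. The called member, CYP51A1, had 2.97 ± 0.568 CPM in Panc3.27 and 14.5 ± 2.43 CPM in ASPC1.

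Genes of drug and steroid metabolism were mostly on the ASPC1 side. Of 59 autosomal members, 48 passed the filter, 8 were called higher and 20 lower, with a median log2 fold change of -1.09. CYP3A5, a cytochrome that metabolises many drugs, had 0.631, 1.26 and 1.72 CPM in the 3 Panc3.27 libraries, against 300.3, 273 and 258 CPM in the 3 ASPC1 libraries. NQO1, a quinone reductase under NRF2, had 31.2 ± 0.557 CPM in Panc3.27 and 392 ± 10.3 CPM in ASPC1. AKR1C3, an aldo-keto reductase, had 2.43 ± 0.179 CPM in Panc3.27 and 209.5 ± 1.72 CPM in ASPC1. These 3 were lower, whereas GCLM, of glutathione synthesis and also an NRF2 target, was higher. GCLM had 76.9 ± 5.78 CPM in Panc3.27 and 18.5 ± 2.58 CPM in ASPC1. Without ASPC1 DMSO replicate 1 its log2 fold change was 1.97, just under the 4-fold rule. The aldehyde dehydrogenases ALDH1A3 (162 CPM in Panc3.27 and 838 CPM in ASPC1), ALDH3A1 (1.86 CPM in Panc3.27 and 159 CPM in ASPC1) and ALDH2 (16.4 CPM in Panc3.27 and 103 CPM in ASPC1) were lower. DPYD, which degrades fluorouracil, had 0.545 ± 0.211 CPM in Panc3.27 and 17.9 ± 0.461 CPM in ASPC1. CDA, which inactivates gemcitabine, was not called at 46.1 ± 0.94 CPM in Panc3.27 and 40.6 ± 2.06 CPM in ASPC1. The AKR1C genes share most of their sequence, so the division of reads among them is uncertain.

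The integrated stress response, which raises amino acid synthesis and transport through ATF4, differed in a way that depended on the ASPC1 group. Of its list's 29 autosomal members, 29 passed the filter, 11 were called higher and 1 lower, with a median log2 fold change of 1.15. PHGDH, the first enzyme of serine synthesis, had 76.9, 78.3 and 83.6 CPM in the 3 Panc3.27 libraries, against no read in any of the 3 ASPC1 libraries. PSAT1, the next enzyme, had 181 ± 8.69 CPM in Panc3.27 and 25.6 ± 1.17 CPM in ASPC1. SLC7A5, the leucine transporter, had 2250.1, 2076 and 2331 CPM in the 3 Panc3.27 libraries, against 195, 217 and 218 CPM in the 3 ASPC1 libraries. SLC7A11, the cystine transporter, was lower, with 34.3 ± 1.17 CPM in Panc3.27 and 271 ± 9.33 CPM in ASPC1. The transducers ATF4 (271 CPM in Panc3.27 and 206 CPM in ASPC1) and DDIT3 (7.05 CPM in Panc3.27 and 8.29 CPM in ASPC1) and the target ASNS (2.37 CPM in Panc3.27 and 3.09 CPM in ASPC1) were not called. Against ASPC1 siCTRL in place of DMSO, 4 members of the list were called higher and 2 lower, and the median log2 fold change was -0.76. PSAT1 then had a log2 fold change of 0.03 and SLC7A5 of 1.15, and neither was called. PHGDH kept its call there, with 8.53. This list is thus no stable difference between the lines. Of the hypoxia and glycolysis list's 26 autosomal members, 26 passed the filter, 7 were called higher and 3 lower. LDHB, lactate dehydrogenase B, had 27.8, 28.3 and 32.9 CPM in the 3 Panc3.27 libraries, against no read in any of the 3 ASPC1 libraries. LDHA had 1279 ± 94.3 CPM in Panc3.27 and 1936 ± 159 CPM in ASPC1. LDHB was called and LDHA was not. SLC2A3, a glucose transporter, had 309 ± 9.16 CPM in Panc3.27 and 0.115 ± 0.0625 CPM in ASPC1. BNIP3, a mitophagy receptor, had 65.4 ± 2.62 CPM in Panc3.27 and 0.0488 ± 0.0626 CPM in ASPC1. CA9, a carbonic anhydrase induced by low oxygen, was on the ASPC1 side, with 10.2 ± 1.03 CPM in Panc3.27 and 173 ± 29.1 CPM in ASPC1. VEGFA (87.4 CPM in Panc3.27 and 65.3 CPM in ASPC1) was not called.

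The HOX genes, which record position along the body axis, differed by cluster. Of 39 autosomal members, 34 passed the filter, 9 were called higher and 10 lower. In the HOXB cluster all 7 genes from HOXB2 to HOXB8 were called lower. HOXB3 had 0.53, 0.491 and 0.418 CPM in the 3 Panc3.27 libraries, against 111, 108 and 103 CPM in the 3 ASPC1 libraries. HOXB6 had 0.787 ± 0.0822 CPM in Panc3.27 and 51.3 ± 1.35 CPM in ASPC1. In the HOXD cluster all 5 genes from HOXD9 to HOXD13 were called higher. HOXD10 had 22.6 ± 1.56 CPM in Panc3.27 and no read in any of the 3 ASPC1 libraries. HOXD13 had 15.9 ± 0.595 CPM in Panc3.27 and no read in any of the 3 ASPC1 libraries. The HOXA cluster was divided. HOXA13, a hindgut gene, had 1.41, 1.01 and 1.37 CPM in the 3 Panc3.27 libraries, against 128, 128 and 119 CPM in the 3 ASPC1 libraries. HOTTIP, the non-coding gene beside it, had 0.229 ± 0.146 CPM in Panc3.27 and 33.4 ± 3.13 CPM in ASPC1. HOXA7, nearer the other end, was higher, with 14.2 ± 1.25 CPM in Panc3.27 and 0.636 ± 0.117 CPM in ASPC1. In the HOXC cluster HOXC13, a factor of hair and nail, was the called member, with 19.8 ± 1.09 CPM in Panc3.27 and 0.527 ± 0.0456 CPM in ASPC1.

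**Figure D2:**
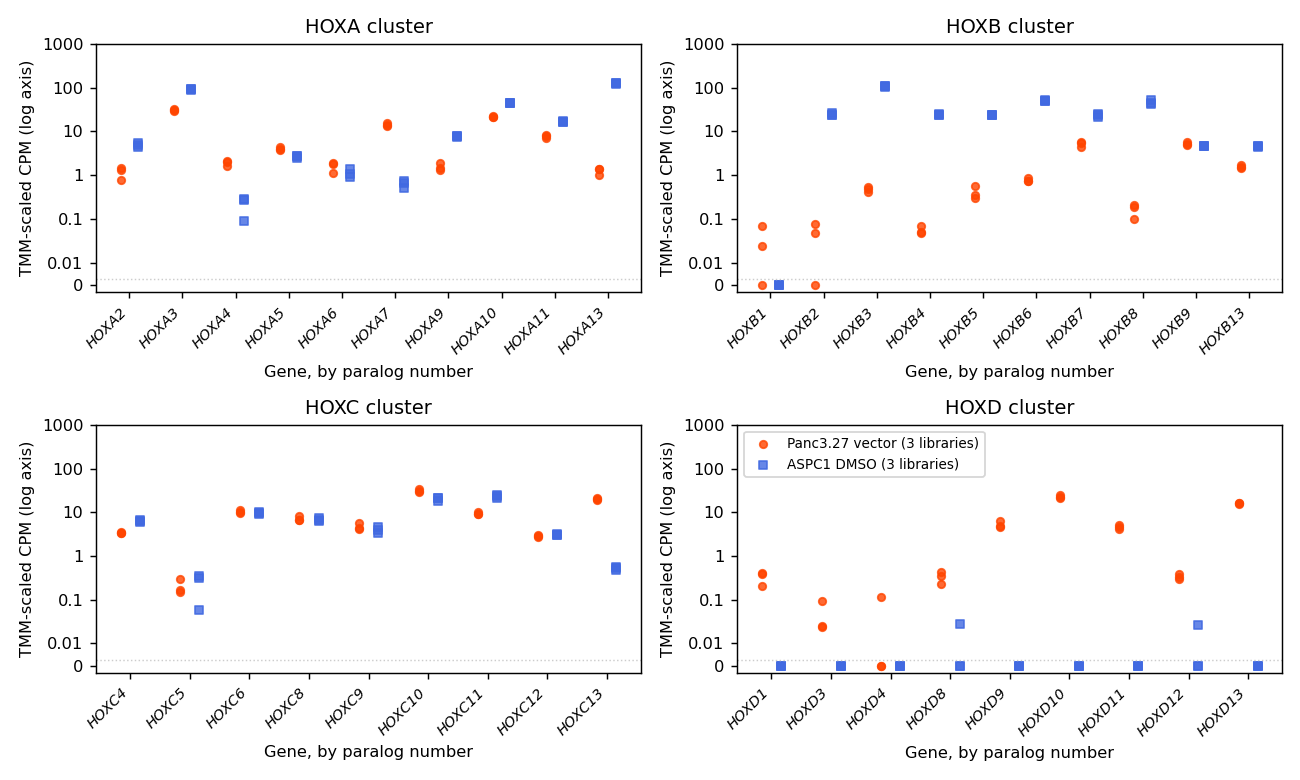
Level of HOX genes by cluster and paralog number, in TMM-scaled CPM on a log axis, with 1 point per library (Panc3.27 vector circles on the left, ASPC1 DMSO squares on the right, 0 under the dotted line). HOXB2 to HOXB8 lie lower in Panc3.27 and HOXD9 to HOXD13 are at 0 or within 1 read in the ASPC1 libraries, while most HOXC genes lie level.

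Germ-line and neural genes that passed the filter were mostly higher in Panc3.27. Of the cancer-testis list's 26 autosomal members, 8 passed the filter, 7 were called higher and 1 lower. LIN28B, an oncofetal inhibitor of let-7, had 40.2 ± 1.13 CPM in Panc3.27 and 1 count in all over the 3 ASPC1 libraries. TEX15, a germ-cell gene, had 41.3 ± 4.17 CPM in Panc3.27 and 1.76 ± 0.495 CPM in ASPC1. PIWIL1, a piRNA-binding protein, was the member called lower, with no read in any of the 3 Panc3.27 libraries and 2.23 ± 0.155 CPM in ASPC1. Of the neuroendocrine and neural list's 25 autosomal members, 10 passed the filter, 8 were called higher and 1 lower. SYT1, a synaptic vesicle protein, had 15.4 ± 0.127 CPM in Panc3.27 and no read in any of the 3 ASPC1 libraries. MAP2, a neuronal microtubule protein, had 57.6 ± 4.39 CPM in Panc3.27 and 1.27 ± 0.614 CPM in ASPC1. The defining neuroendocrine factors NEUROD1 and INSM1 and the granule proteins CHGA and CHGB did not pass the filter. Of the imprinted list's 29 autosomal members, 17 passed the filter, 7 were called higher and 2 lower. MEST had 281 ± 13.4 CPM in Panc3.27 and 34.4 ± 0.253 CPM in ASPC1. IGF2, a growth factor, had 14.9 ± 0.841 CPM in Panc3.27 and 1 count in all over the 3 ASPC1 libraries. GRB10, an adaptor of the insulin receptor, had 3.85 ± 0.104 CPM in Panc3.27 and 125 ± 3.32 CPM in ASPC1. MEST and IGF2 were thus higher and GRB10 lower. Of the clustered protocadherins' 53 autosomal members, 29 passed the filter, 3 were called higher and 11 lower. PCDHB13 had 0.219 ± 0.154 CPM in Panc3.27 and 13.5 ± 0.902 CPM in ASPC1. PCDHGC3 had 16.6 ± 1.27 CPM in Panc3.27 and 2.57 ± 0.13 CPM in ASPC1. Clustered protocadherins overlap or resemble each other, so their values are uncertain.

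Lineage genes picked from those called kept their side when the other groups of each line were set beside them. Uncalled list members were left out. Levels here are on a scale fitted to all 30 RNA-seq libraries. Over all tested genes, 34.6% had every Panc3.27 library above every ASPC1 library, and 27.5% had every one below. TP63 had 423 ± 30.7 CPM in Panc3.27 vector and 718 ± 38.3 CPM in Panc3.27 OE, against 0.292 CPM in ASPC1 DMSO, 0.842 CPM with siCTRL, 0.295 CPM with siZNF274 and 0.617 CPM with AZA. HNF4A had 0.483 CPM in Panc3.27 vector and 0.878 CPM in OE, against 281 CPM in ASPC1 DMSO, 252 CPM with siCTRL, 202 CPM with siZNF274 and 178 CPM with AZA. KRT7 reached 15 ± 0.664 CPM in ASPC1 with AZA, against 730.5 CPM in Panc3.27 vector. Neither the siRNA nor azacitidine brought these genes near the level of the other line. CFPAC1 in DMSO stood with Panc3.27 in some genes and with ASPC1 in others. It held GRHL2 at 128 CPM, SOX2 at 68.2 CPM and KRT7 at 791 CPM, which is near Panc3.27. It held TP63 at 0.35 CPM and VIM at 2082 CPM, which is near ASPC1. CDH17 was at 0.594 CPM, which is near Panc3.27. These values are set side by side without a test.

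**Figure D3:**
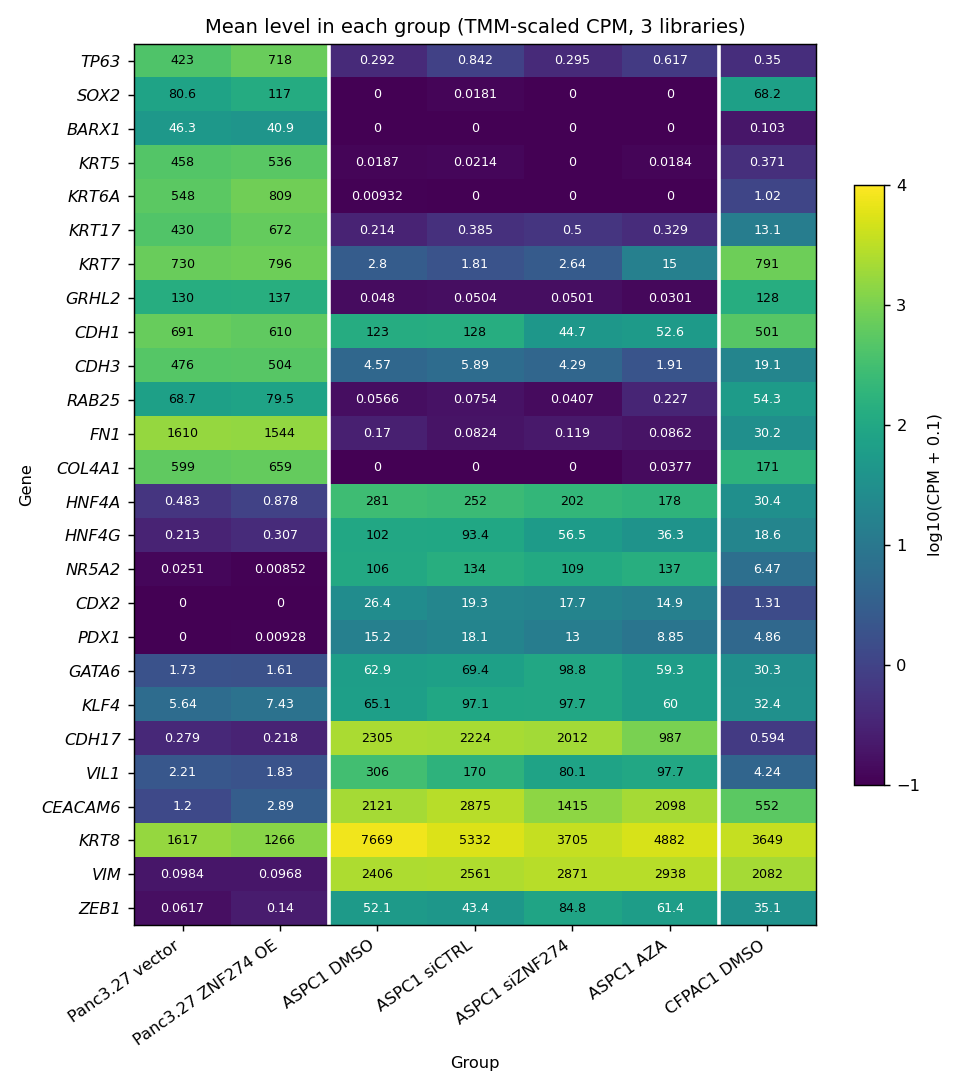
Mean level of 26 lineage genes (rows) in 7 groups of 3 libraries (columns), in TMM-scaled CPM on the scale of all 30 RNA-seq libraries, with the colour giving log10(CPM + 0.1). The first 13 genes are higher in both Panc3.27 groups than in all 4 ASPC1 groups, and the last 13 are lower. All 26 were picked from genes called between Panc3.27 vector and ASPC1 DMSO, so the division between those groups was set by the choice.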

How the data were processed

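RNA-seq gave a table of whole-number counts per gene, which the authors deposited without normalization. Per the labels' protocols, 500 ng of total RNA entered a stranded preparation with removal of ribosomal RNA. Per the submitters' processing notes the genome build was hg38 and the tools included FastQC and STAR 2.7.10b. Which program counted the reads, and with what strand setting, is not stated, so close paralogs, overlapping genes and antisense partners (VIM and VIM-AS1, B3GALT5 and B3GALT5-AS1) are uncertain. The deposited H3K9me3 peak list of ASPC1 carries a score per peak that was not used, and of its 63955 peaks the 49890 that the authors called in the control hairpin group were laid over gene bodies.

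Counts of the 6 libraries were fitted with edgeR 4.0.16 in R 4.3.3 (filterByExpr by group, TMM, quasi-likelihood test). Adjusted p-values were taken over all 17709 tested genes, and calls needed an adjusted p under 0.05 and a fold of at least 4. Tested on simulated data for this comparison over 17709 genes, the fit recovered 100% of 200 genes changed 8-fold and called none of the others. The simulation changed few genes, in both directions, and left all others equal. It therefore does not cover many genes shifted mainly upward, changed genes near 0 or folds near the 4-fold rule. No 2 libraries of a group were identical, and chi-square per gene between them ran from 6.88 to 15.6. Alternatives included DESeq2 1.42.0.

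The members and the 42 lists were chosen with earlier results of these data known. Genes named are the 12 protein-coding ones with the largest fold in each direction at 20 CPM or more without overlap, called list members with the largest fold or level, called and uncalled members of the identity, driver and ZNF274 lists, and genes of shifted windows. Promoters shown needed at most 3 counts in every library of the low line. For a line without reads, folds are bounds against 3 counts per library. With 1 to 3 counts in all they are ratios with exact Poisson intervals, which cover counting error only. Autosomal genes alone are reported. The H3K9me3 and promoter tables served as annotation. A few genes of these rules and lists are not reported here.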

Additional observations from a re-analysis of the deposited data

How the results depend on the processing

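The 3084 genes called higher and 1732 called lower varied little with the scaling and the test. Upper quartile scaling gave 3155 and 1653, with the median log2 fold change of all tested genes at 0.19 in place of 0.09. DESeq2 gave 3096 and 1731. With all 30 libraries in 1 fit, in which more genes passed the filter, they were 3718 and 2055. Other numbers came from a fold of at least 2 (4593 higher, 3443 lower), no filter on low counts (4555, 2320) and at least 50 counts in at least 3 libraries (2133, 1278), which change the genes counted. Leaving out each library in turn gave 3162 to 3357 genes higher and 1751 to 1848 lower. The fit with a replicate block gave 3088 and 1737. Libraries with the same number did not deviate together in every pair (correlations of 0.104, -0.0225 and 0.117), so the numbers were not taken as a pairing. Against ASPC1 siCTRL the counts were 3118 and 1657, and with Panc3.27 OE in place of the vector, chosen after the data were seen, 3311 and 1634.

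Of the genes named, those that lost their call against ASPC1 siCTRL and are not mentioned with their list were ALDH1A3, MST1R, PCDHGC3 and SNAI1. With Panc3.27 OE, ALDH1A3, DSG4, KRT80, MST1R, SEMA4B and SLC7A11 lost theirs. None of the named genes that were called changed direction under the alternatives run. Named genes that were not called did so as follows. With Panc3.27 OE the log2 fold change was 0.19 for AGR2, 1.29 for ASNS, 1.16 for DDIT3, 0.047 for HLA-DMA, 0.25 for ITGA6, 1.06 for KRT16, -0.014 for MKI67 and 0.086 for SNAI2. Against ASPC1 siCTRL it was -0.89 for ATF4, 0.24 for GATA4 and -1.24 for VEGFA, and with upper quartile scaling 0.040 for GATA4. Their cause was not tested. Depth of 35579652 counts or more limits only genes near the floor of 3 counts.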

Other observations

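Further gene families, grouped by symbol after the data were seen, also differed between the lines, and their counts are given beside the 18.0% of all tested genes called higher and the 10.1% called lower. Of 20 autosomal semaphorins, guidance cues that act through plexins and neuropilins, 18 passed the filter, 11 were called higher and 3 lower. SEMA4D had 63 ± 1.27 CPM in Panc3.27 and 0.161 ± 0.048 CPM in ASPC1. SEMA3F had 47.7 ± 0.607 CPM in Panc3.27 and 0.258 ± 0.113 CPM in ASPC1. SEMA4B had 81.9 ± 2.8 CPM in Panc3.27 and 376 ± 16.5 CPM in ASPC1. SEMA4G had 6.38 ± 0.198 CPM in Panc3.27 and 159.5 ± 2.03 CPM in ASPC1. All 9 Notch receptors and ligands passed, with 5 called higher and none lower. NOTCH3 had 276, 256 and 286 CPM in the 3 Panc3.27 libraries, against 0.243, 0.418 and 0.395 CPM in the 3 ASPC1 libraries. Its ligand JAG2 had 127 ± 8.94 CPM in Panc3.27 and 2.85 ± 0.463 CPM in ASPC1. DLL1 had 35.4 ± 2.7 CPM in Panc3.27 and 0.207 ± 0.0644 CPM in ASPC1. Of 13 serpins of clade B, which lie mostly in a cluster on chromosome 18, 11 passed, with 6 called higher and none lower, among them SERPINB7 with 17.3 ± 2.04 CPM in Panc3.27 and no read in any of the 3 ASPC1 libraries and SERPINB2 with 20.9 ± 0.164 CPM in Panc3.27 and 1 count in all over the 3 ASPC1 libraries. The 6 serpins called higher all lie in the window of chromosome 18 with the highest median, so they are no result separate from that window. SERPINB3 and SERPINB4 are near-identical and their values are uncertain.

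Connexins, the channel proteins of gap junctions, were led by GJA1, connexin 43, with 334, 302 and 319 CPM in the 3 Panc3.27 libraries, against 2 counts in all over the 3 ASPC1 libraries. Of 20 members 11 passed, 5 were called higher and 2 lower. Of 43 forkhead factors 33 passed, 14 were called higher and 4 lower. FOXE1, a factor of stratified foregut and thyroid, had 70.1 ± 6.68 CPM in Panc3.27 and 1 count in all over the 3 ASPC1 libraries. FOXC2 had 28.9 ± 2.11 CPM in Panc3.27 and 0.0646 ± 0.0582 CPM in ASPC1. FOXL1, a gut factor, had 7.85 ± 0.864 CPM in Panc3.27 and 127 ± 6.25 CPM in ASPC1. FOXO1 had 2.48 ± 0.144 CPM in Panc3.27 and 54.7 ± 1.96 CPM in ASPC1. Of 18 SOX factors 12 passed, 5 were called higher and 3 lower, with SOX21 at 28.1 ± 1.92 CPM in Panc3.27 and 1 count in all over the 3 ASPC1 libraries. SOX15 had 17.1 ± 0.0199 CPM in Panc3.27 and 2.23 ± 0.25 CPM in ASPC1. Of 323 solute carriers 238 passed, 61 were called higher and 38 lower. SLC7A8, an amino acid exchanger, had 160.3 ± 12.1 CPM in Panc3.27 and 0.501 ± 0.141 CPM in ASPC1. SLC44A2, a choline carrier, had 256 ± 12.8 CPM in Panc3.27 and 0.313 ± 0.11 CPM in ASPC1. SLC6A20, a proline carrier of gut and kidney, had 0.167 ± 0.0368 CPM in Panc3.27 and 247 ± 18.7 CPM in ASPC1. No cause was tested for any of these differences.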
